A study of Mus musculus with 8 samples.

Results

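This section describes 28 genes of cholesterol and fatty acid synthesis in the lungs of newborn mice. They were taken by gene name from a list that was drawn up with earlier results of these data known. Measured values enter the rule only in the choice of each gene's feature, the one with the highest mean over all 8 arrays. They fall into 15 sterol genes (Hmgcs1 to Stard4) and 13 fatty acid and phospholipid genes (Fasn to Acot1). All 28 were matched to features of the array and passed the filter on dim features, which did not use the groups, so that they are 28 of 17234 genes tested. Whole lungs were profiled on 8 Agilent microarrays with 1 dye (Cy3). The labels give 4 arrays to pups heterozygous for Fgf10 (Fgf10+/-), a growth factor that the lung mesenchyme makes and that acts on the epithelium, and 4 to wild-type pups. Both groups had the strain background C57Bl/6J and breathed 85% oxygen in a chamber between postnatal days 0 and 3. There were no arrays from pups in room air, so every value describes a genotype difference under high oxygen. The labels do not say which part of Fgf10 the allele lacks, in which cells, or whether pups came from separate litters, and the titles of the Fgf10+/- arrays carry the letters TG, which the labels do not explain. p-values therefore measure the spread between these 8 samples.

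Cells make cholesterol from acetyl-CoA through mevalonate, the isoprenoids, squalene and lanosterol, and fatty acids from the same acetyl-CoA through malonyl-CoA. The transcription factors SREBP2 (gene Srebf2) and SREBP1 (gene Srebf1) switch on the genes of these routes, SREBP2 mainly the sterol genes and SREBP1 mainly the fatty acid genes, and INSIG proteins hold them in the endoplasmic reticulum when sterol is plentiful. In the lung, alveolar type 2 cells use both routes to make surfactant, which is rich in phosphatidylcholine and also holds cholesterol.

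In outline, 1 of the 28 genes differed past the threshold, Acot1, which was higher in the Fgf10+/- lungs. The 13 fatty acid genes all had a higher mean in Fgf10+/- lungs, by a median of 0.21 on the log2 scale, and 5 of them did so with no overlap between the groups. Of all tested genes 51.3% had the higher mean in Fgf10+/-. Without overlap, 3.13% of all tested genes were higher and 3.51% lower in Fgf10+/-. The 15 sterol genes had a median difference of 0.14, none was called, and in every one of them the groups overlapped. Values are log2 intensities as deposited, differences are Fgf10+/- minus wild-type, and a gene was called at an adjusted p below 0.05 in limma, with Benjamini-Hochberg adjustment over the 17234 genes. By this rule 0.795% of all tested genes were called, 0.226% as higher and 0.569% as lower in Fgf10+/-, and the median difference over all of them was 0.01.

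**Figure D1:**
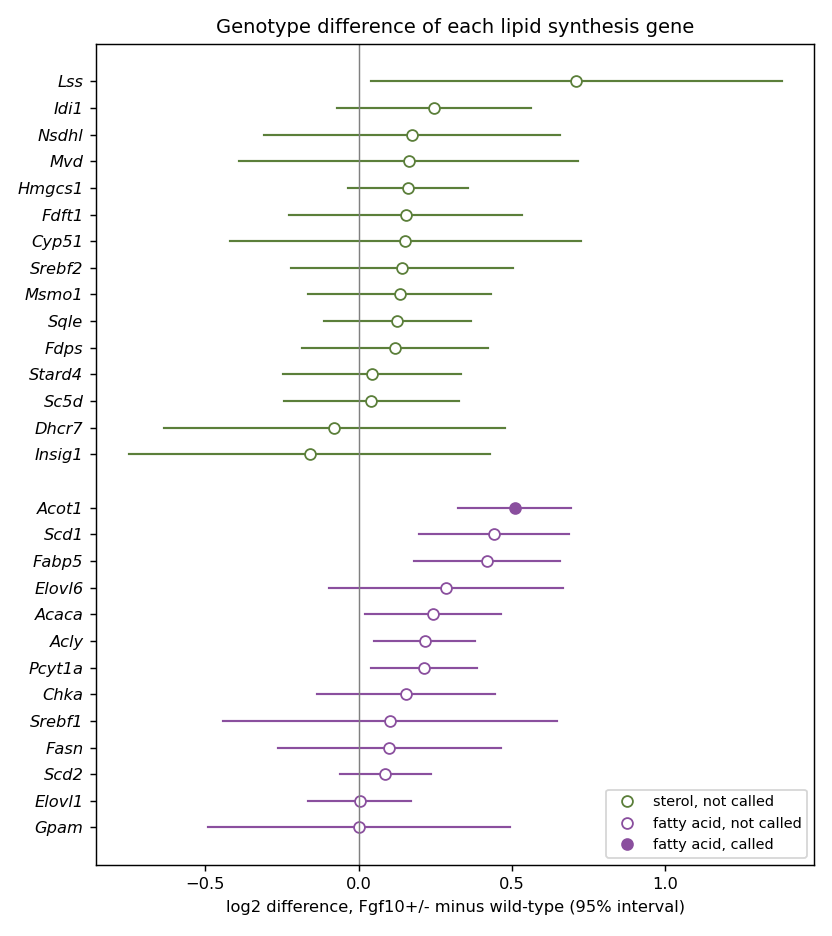
Log2 difference between Fgf10+/- and wild-type lungs (x axis) for each of the 28 genes (y axis, sterol genes in the upper block), with points for limma's estimate and lines for its 95% interval (4 arrays a group). Only Acot1 is filled, which marks a call, and 26 of the 28 points lie above 0.

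Promoter sequences from RefSeq (build GRCm38.p6) were found for 21 of the 28 genes. Sqle, Fdps, Fdft1, Stard4, Scd1, Scd2 and Fabp5 were not matched. In windows from 250 bases before to 50 bases after each annotated start, both strands were searched for TCACNCCAC, the core of the sterol regulatory element that SREBPs bind, for CCAAT, the box that NF-Y binds, and for GGGCGG, the GC box that Sp1 binds. The element core was present in Hmgcs1 and Pcyt1a only, 2 of 21 genes, against 1.44% of the 27025 genes in the table. CCAAT was present in 11 of 11 sterol genes and 7 of 10 fatty acid genes, against 41.1% of all genes. GGGCGG was present in the same numbers, 11 of 11 and 7 of 10, against 38.2% of all genes. Such a match is a description of the letters and no measured site. The 250 bases before the start are printed 5′ to 3′ for the sterol gene and the fatty acid gene with an element core, and for Acot1, the gene that was called. Capitals mark the element core and the CCAAT box, which appears as its reverse complement where it lies on the other strand, and these matches overlapped no GGGCGG.
Hmgcs1: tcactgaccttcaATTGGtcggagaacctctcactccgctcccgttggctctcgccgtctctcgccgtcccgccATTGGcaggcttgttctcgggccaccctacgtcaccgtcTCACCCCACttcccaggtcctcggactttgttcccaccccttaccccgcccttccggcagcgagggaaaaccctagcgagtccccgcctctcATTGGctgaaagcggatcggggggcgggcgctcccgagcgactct
Pcyt1a: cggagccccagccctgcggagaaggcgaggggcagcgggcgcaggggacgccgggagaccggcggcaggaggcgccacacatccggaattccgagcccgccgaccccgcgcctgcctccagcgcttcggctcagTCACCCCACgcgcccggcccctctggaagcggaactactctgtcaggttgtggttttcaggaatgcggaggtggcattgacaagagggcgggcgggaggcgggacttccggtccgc
Acot1: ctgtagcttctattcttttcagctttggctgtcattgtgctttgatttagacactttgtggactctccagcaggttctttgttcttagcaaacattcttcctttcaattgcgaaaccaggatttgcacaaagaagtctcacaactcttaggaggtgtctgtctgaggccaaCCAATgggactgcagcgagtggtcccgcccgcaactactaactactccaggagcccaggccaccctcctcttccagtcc
The Hmgcs1 stretch lies on the plus strand at chr13:119690101-119690350, and its element core, TCACCCCAC, begins 137 bases before the start with 3 CCAAT boxes around it. The Pcyt1a stretch, at chr16:32430671-32430920 on the plus strand, belongs to the first of that gene's annotated starts and has the same TCACCCCAC 116 bases before the start and no CCAAT. The Acot1 stretch, at chr12:84009252-84009501 on the plus strand, holds no element core and has 1 CCAAT, 79 bases before the start.

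The arrays carried the markers of lung, and none of 10 such markers was called, with a median difference of 0.00. Sftpc read 15.99 in both group means, at the top of the scale, and Ager of type 1 cells read 12.2 and 12.3. Nkx2-1, the transcription factor of lung epithelium, read 10.79, 10.76, 11.02 and 10.67 in Fgf10+/- and 10.45, 10.42, 10.48 and 10.26 in wild-type, with no overlap and a difference of 0.41 ± 0.09 (limma adjusted p = 0.0692, and 0.0259 with the feature of largest variance). Pecam1 of endothelium differed by -0.29 ± 0.15. Fgf10 was read by 10 features, and its brightest read 7.81, 7.99, 8.10 and 8.28 in Fgf10+/- arrays 1 to 4 and 7.53, 8.16, 7.91 and 7.64 in wild-type arrays 1 to 4. The groups overlapped, with a difference of 0.23 (exact permutation p = 0.2, two-sided; limma adjusted p = 0.653), and all 10 features had the higher mean in Fgf10+/-, by 0.06 to 0.44. All 10 were read on the same 8 arrays, so their shared direction is not 10 separate findings. The labels do not say how the features lie to the deleted part, so these values are no check of the genotype. Every direction rests on the labels. Over all genes 137 were called, 39 higher and 98 lower in Fgf10+/-. That count fell to 34 without wild-type 2, to 62 without wild-type 4 or Fgf10+/- 3, and to 66, 67 and 86 without Fgf10+/- 4, 1 and 2. It was 1 in a fit without limma's variance trend over intensity.

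Among the sterol genes, the enzymes that turn acetyl-CoA into isoprenoids gave no call, and the groups overlapped in each. Hmgcs1, which makes the precursor of mevalonate, read 11.47, 11.26, 11.57 and 11.31 in Fgf10+/- arrays 1 to 4 and 11.29, 11.32, 11.28 and 11.08 in wild-type arrays 1 to 4. Fgf10+/- 1 and 3 were the highest and wild-type 4 the lowest, and the other arrays of the groups lay among each other. The difference was 0.16 ± 0.09 (SE), with a 95% interval from -0.03 to 0.36 and a limma adjusted p of 0.551. Mvd, which decarboxylates mevalonate diphosphate, read 7.41, 7.12, 7.23 and 6.82 in Fgf10+/- and 7.32, 7.32, 7.18 and 6.12 in wild-type. Its difference of 0.16 ± 0.26 rested on wild-type 4, without which it was -0.13. Idi1, the isomerase of the isoprenoid unit, read 10.28, 9.83, 10.05 and 9.67 in Fgf10+/- and 9.77, 9.97, 9.72 and 9.38 in wild-type, so that Fgf10+/- 1 was highest, wild-type 4 lowest, and the rest mixed. The difference was 0.25 ± 0.15 (limma adjusted p = 0.576). Fdps, which joins isoprenoid units into farnesyl diphosphate, differed by 0.12 ± 0.14, with its highest value in wild-type 2 and its lowest in wild-type 4.

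Squalene and lanosterol synthesis held the gene with the largest difference of the 28, which also had the largest standard error. Lss, the cyclase that makes lanosterol, read 5.85, 5.27, 5.84 and 6.10 in Fgf10+/- arrays and 5.93, 4.75, 4.67 and 4.89 in wild-type arrays. Wild-type 1 lay among the Fgf10+/- arrays and the other wild-type arrays below all of them. The difference was 0.71 ± 0.31, with an unadjusted p of 0.0397 and an adjusted p of 0.410 in limma and an exact permutation p of 0.114. Without wild-type 1 the difference was 1.00 and still not called. Fdft1, the squalene synthase, read 8.51, 8.20, 8.70 and 8.33 against 8.51, 8.54, 8.32 and 7.76, a difference of 0.15 ± 0.18 that was -0.02 without wild-type 4. Sqle, the epoxidase of squalene, read 10.44, 10.39, 10.29 and 10.05 against 10.34, 10.28, 10.02 and 10.03, and differed by 0.13 ± 0.11. Its arrays of both groups overlapped over most of their range.

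The later enzymes, which remove methyl groups from lanosterol and move its remaining bonds, gave the same picture. Cyp51, the first demethylase, read 5.98, 5.75, 6.10 and 5.84 in Fgf10+/- and 6.21, 6.05, 5.77 and 5.03 in wild-type. Both its highest and its lowest array were wild-type, and the difference of 0.15 ± 0.27 was -0.09 without wild-type 4. Msmo1, a sterol oxidase named Sc4mol on the array, differed by 0.13 ± 0.14, and Nsdhl, its partner in the same demethylation, by 0.17 ± 0.22. Sc5d, a desaturase, differed by 0.04 ± 0.13. Dhcr7, the reductase of the last step, read 5.72, 5.48, 4.88 and 5.60 against 5.48, 5.84, 5.25 and 5.42, a difference of -0.08 ± 0.26. Without Fgf10+/- 3, its lowest array, the Dhcr7 difference was 0.10.

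The regulators and the carrier of the sterol set did not separate the groups either. Srebf2, which encodes SREBP2, differed by 0.14 ± 0.17, and on a dimmer feature by 0.40 with overlap. Insig1, itself a target of the SREBPs, read 5.69, 5.54, 5.44 and 5.17 in Fgf10+/- and 6.04, 6.00, 5.00 and 5.44 in wild-type, so that wild-type arrays were both above and below all Fgf10+/- arrays, and the difference was -0.16 ± 0.27. Stard4, which carries cholesterol between membranes, differed by 0.04 ± 0.13 on its brighter feature. On a dimmer Stard4 feature the difference was -0.74, and every Fgf10+/- array lay below every wild-type array. Features of a gene can read different transcripts or sit near background, and no detection call was in the table, so the split between the Stard4 features was not tested.

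Over the sterol set, 13 of 15 differences were positive, against 51.3% of all tested genes. No sterol gene was called by limma or had an exact permutation p below 0.05, and 1, Lss, had an unadjusted limma p below 0.05, against 5.39% of all genes for higher and 5.79% for lower means. A pair of wild-type arrays read low over much of the set. Wild-type 4 was the lowest of the 8 arrays in 7 of the 15 genes and wild-type 3 in 5. The sterol score, which is the mean over the 15 genes of each array's value minus the gene's mean over the 8 arrays, was 0.17, -0.01, 0.14 and -0.01 in Fgf10+/- arrays 1 to 4 and 0.14, 0.10, -0.19 and -0.33 in wild-type arrays 1 to 4. Wild-type 1 and 2 lay among the Fgf10+/- arrays, and wild-type 3 and 4 lay far below all others. Leaving out wild-type 4 lowered the median difference from 0.14 to 0.03, with 8 of 15 differences positive. RNA quality and handling of these arrays were not recorded in the labels, and their part was not tested.

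**Figure D2:**
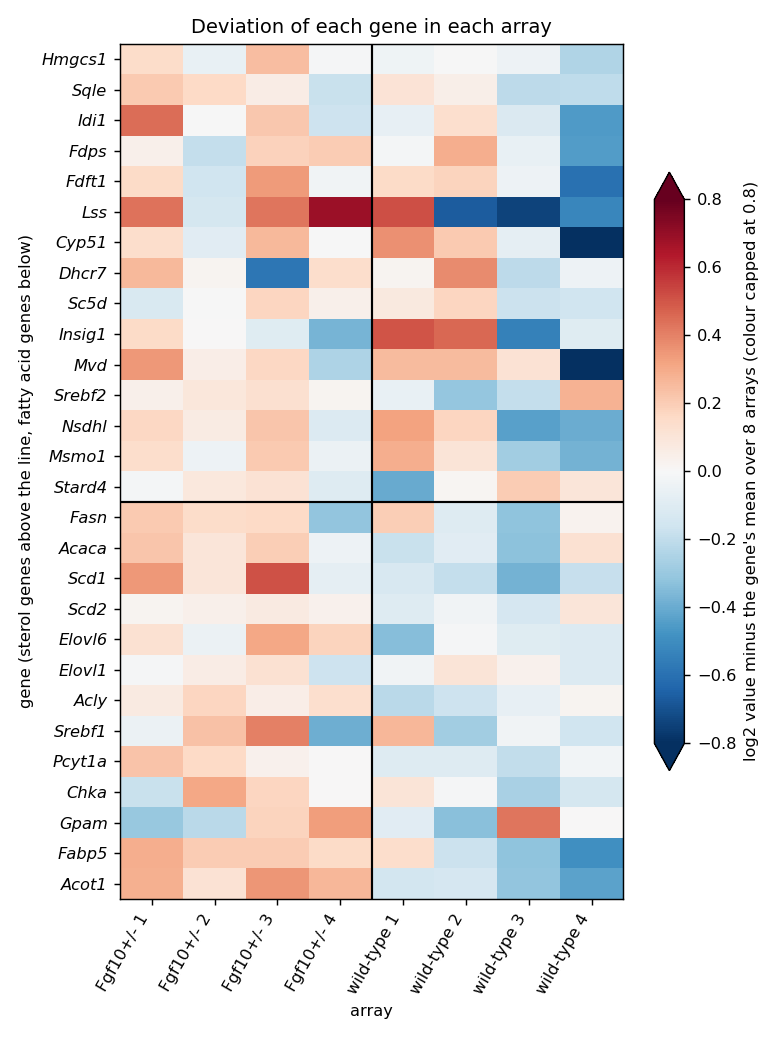
Colour gives each gene's log2 value in an array minus its mean over the 8 arrays, with genes in rows (sterol genes above the horizontal line, fatty acid genes below) and arrays in columns (Fgf10+/- left of the vertical line). In wild-type 3 and 4 only 2 of 15 sterol genes lie above their mean (red), against 5 to 13 in each other array, and of the 13 fatty acid genes 8 to 13 lie above it in each Fgf10+/- array and 1 to 5 in each wild-type array.

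The fatty acid set held the gene that was called. Acot1, a cytosolic thioesterase that splits long acyl-CoA into free fatty acid and CoA, read 12.58, 12.41, 12.65 and 12.56 in Fgf10+/- arrays 1 to 4 and 12.15, 12.16, 11.98 and 11.87 in wild-type arrays 1 to 4. Every Fgf10+/- array lay above every wild-type array, with Fgf10+/- 2 the lowest of its group and wild-type 4 the lowest of all. Acot1 rose by 0.51 ± 0.09 on the log2 scale (95% interval 0.33 to 0.69, a fold of 1.42), with an adjusted p of 0.0155 in limma. The exact permutation p was 0.0286, the smallest that the 70 assignments of 4 against 4 arrays allow, and 0.43 after adjustment over all genes. The call was lost without Fgf10+/- 1, 3 or 4 (limma adjusted p = 0.0576, 0.0623 and 0.0526) and in the fit without the variance trend (0.197), while the difference stayed between 0.45 and 0.56 when any of the 8 arrays was left out. Acot2, a close relative of Acot1 in sequence, differed by 0.32 ± 0.32. Probe sequences were not used, so whether relatives share signal was not tested, for the Acot and the Scd genes alike.

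Of the other fatty acid genes whose groups did not overlap, Fabp5 and Scd1 had the larger differences. Fabp5, a carrier of fatty acids in the cytosol, read 13.30, 13.21, 13.21 and 13.16 in Fgf10+/- and 13.15, 12.84, 12.69 and 12.52 in wild-type. The Fgf10+/- arrays lay close together, wild-type 1 touched them from below, and the other wild-type arrays were spread further down. The Fabp5 difference was 0.42 ± 0.11 (limma adjusted p = 0.113) and became a call only without wild-type 1, at 0.54 with a limma adjusted p of 0.00675. Scd1, the desaturase that makes oleate and palmitoleate, read 11.95, 11.70, 12.11 and 11.53 against 11.47, 11.41, 11.22 and 11.42, with Fgf10+/- 4 only just above wild-type 1. Its difference was 0.44 ± 0.11 (limma adjusted p = 0.105). Scd2, a second desaturase, differed by 0.09 ± 0.07, with wild-type 4 as its highest array.

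Among the enzymes that build the carbon chain, Acly stood apart by a small margin. Acly, which splits citrate into the acetyl-CoA that feeds both routes, read 11.84, 11.94, 11.82 and 11.90 in Fgf10+/- and 11.55, 11.60, 11.70 and 11.79 in wild-type. The groups did not overlap, but Fgf10+/- 3 and wild-type 4 were nearly equal, and the difference was 0.22 ± 0.08 (limma adjusted p = 0.280). A dimmer Acly feature differed by 0.08. Acaca, the carboxylase that makes malonyl-CoA, read 11.03, 10.91, 11.01 and 10.77 against 10.63, 10.72, 10.48 and 10.93, where wild-type 4 lay among the Fgf10+/- arrays. Its difference was 0.24 ± 0.10 (limma adjusted p = 0.389), and a second bright Acaca feature differed by 0.48, again with wild-type 4 inside the Fgf10+/- range. The 2 dimmer Acaca features differed by 0.42 and -0.81, and the mean over all 4 features by 0.09. Fasn, the synthase itself, read 7.78, 7.72, 7.73 and 7.26 against 7.77, 7.47, 7.25 and 7.60, a difference of 0.10 ± 0.17 in which each group had an array at the bottom of the range. Elovl6, which lengthens palmitate, read 6.67, 6.50, 6.86 and 6.73 against 6.21, 6.54, 6.45 and 6.44, where only wild-type 2 lay above the lowest Fgf10+/- array, and it differed by 0.28 ± 0.18. Elovl1, which lengthens longer chains, differed by 0.00 ± 0.08, and Srebf1, which encodes SREBP1, by 0.10 ± 0.25.

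The genes that hand fatty acids on to phospholipid and triglyceride were mixed. Pcyt1a, the rate-limiting enzyme of phosphatidylcholine synthesis through CDP-choline, whose promoter is printed above, read 11.37, 11.30, 11.18 and 11.15 in Fgf10+/- and 11.04, 11.04, 10.95 and 11.12 in wild-type. The groups did not overlap, with Fgf10+/- 4 and wild-type 4 close to each other, and the difference was 0.21 ± 0.08 (limma adjusted p = 0.322). Chka, the choline kinase that acts before it, differed by 0.15 ± 0.13, and its 3 dimmer features differed by 0.36, 0.25 and -0.10. Only on the Chka feature at 0.36 did the groups not overlap. Gpam, which attaches the first fatty acid to glycerol phosphate, differed by 0.00 ± 0.23, and on a dimmer feature by 0.35 with overlap.

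**Figure D3:**
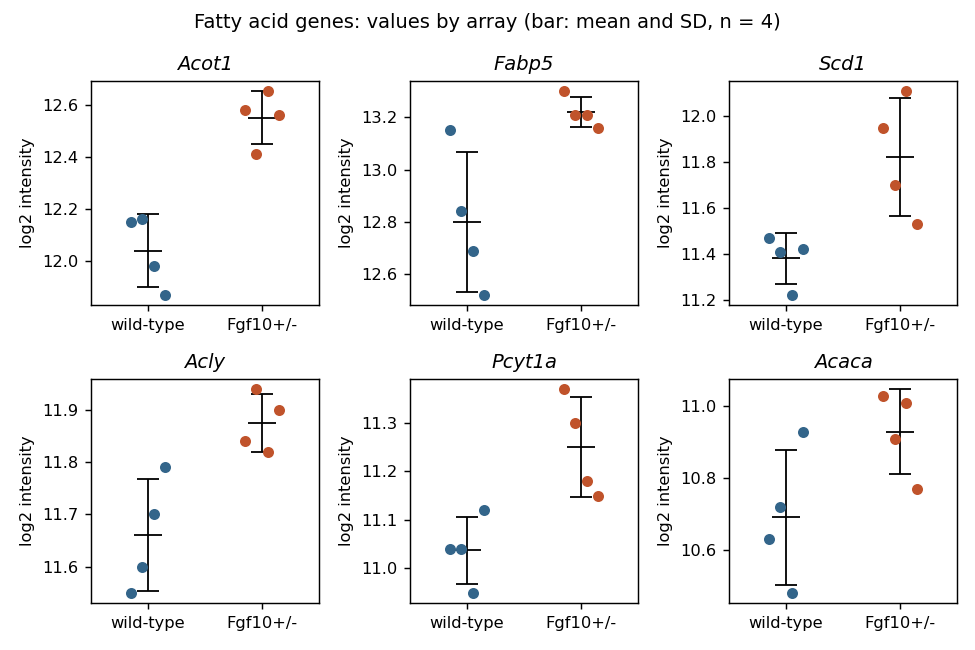
Log2 intensity (y axis) of 6 fatty acid genes in each array (points) by group (x axis), with long bars for the mean and short bars for the SD (n = 4 a group); each panel has its own scale, and levels are not comparable between genes. In Acot1, Fabp5, Scd1, Acly and Pcyt1a every Fgf10+/- point lies above every wild-type point, while in Acaca wild-type 4 lies among the Fgf10+/- points.

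Counted together, 13 of 13 fatty acid differences were positive, and in 5 of 13 (38.5%) every Fgf10+/- array lay above every wild-type array, against 3.13% of all tested genes on this side and 3.51% on the lower side. These 5 were Acot1, Fabp5, Scd1, Acly and Pcyt1a. Without overlap the exact permutation p is fixed at its smallest value, 0.0286, so it adds nothing to this count. After adjustment over all genes it was 0.43 for each of the 5. An unadjusted limma p below 0.05 was reached by 6 of 13, all higher in Fgf10+/-. Over all tested genes this share was 5.39% for higher and 5.79% for lower means. Of the 6 only Acot1 was called after adjustment. The fatty acid score was 0.10, 0.11, 0.21 and 0.01 in Fgf10+/- arrays 1 to 4 and -0.05, -0.12, -0.15 and -0.11 in wild-type arrays 1 to 4. Every Fgf10+/- array had the higher score, Fgf10+/- 3 the highest of all and wild-type 3 the lowest. The median difference stayed between 0.17 and 0.25 when any of the 8 arrays was left out. It was 0.16 over the 8 genes that remain without Fabp5, Acot1, Pcyt1a, Chka and Srebf1, which neither make nor modify fatty acids themselves. Gpam, which attaches fatty acid to glycerol phosphate, was kept among the 8. The genes left out include Acot1, the only call, and Fabp5 and Pcyt1a, so that of the genes without overlap Scd1 and Acly remained. Over the sterol enzymes alone, without Stard4, Srebf2 and Insig1, the median was 0.15, with 11 of 12 differences positive. Since the genes of a set vary together and share the 8 arrays, these counts carry no test.

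**Figure D4:**
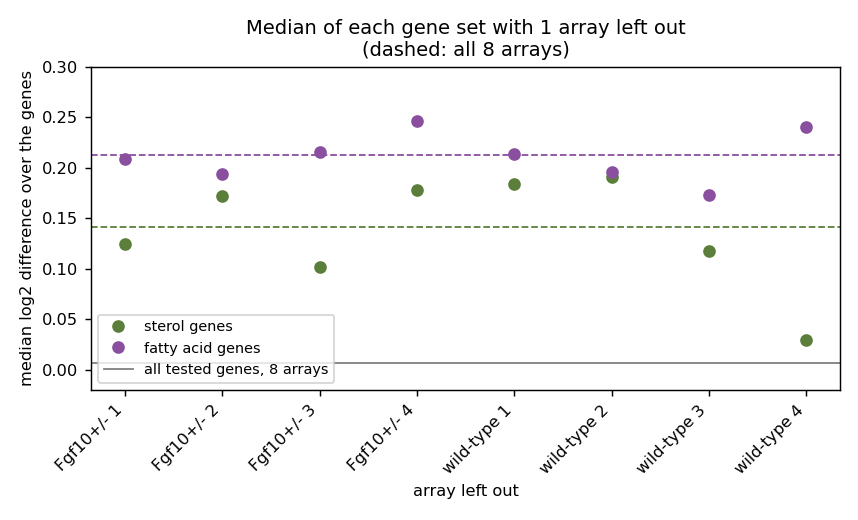
Median log2 difference over the 15 sterol and the 13 fatty acid genes (y axis) when the array named on the x axis was left out; dashed lines give the medians over 8 arrays and the grey line that of all tested genes. The sterol median drops to 0.03 without wild-type 4, and the fatty acid median lies between 0.17 and 0.25 throughout.

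The sets were then compared within each array. The fatty acid score minus the sterol score was -0.07, 0.12, 0.07 and 0.02 in Fgf10+/- arrays 1 to 4 and -0.19, -0.21, 0.03 and 0.22 in wild-type arrays 1 to 4. The group means were 0.04 ± 0.08 and -0.04 ± 0.21 (SD, n = 4), and the groups overlapped, wild-type 4 being the highest of all and wild-type 2 the lowest. A genotype difference between the fatty acid and the sterol set was thus smaller than the spread between arrays, and the sets are not shown to differ from each other.

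The other genes of each route, from lists chosen by function, were measured beside them. Of 10 other sterol enzymes 7 were tested and 3 were not analysed here. None was called, 3 of 7 differences were positive and the median was -0.03, or 0.05 with the feature of largest variance. Pmvk, the kinase that makes mevalonate diphosphate, read 10.95, 10.81, 10.86 and 10.71 against 11.36, 10.86, 11.02 and 11.05, a difference of -0.24 ± 0.10 with an adjusted p of 0.404 in limma. Tm7sf2, a sterol reductase, differed by 0.20 ± 0.14. Among 15 tested genes of sterol uptake, export and control none was called and the median was -0.01, between -0.02 and 0.05 when any array was left out. Insig2 and Stard3 had the smallest p-values there, with differences of 0.20 ± 0.09 and 0.18 ± 0.08 and limma adjusted p-values of 0.411 and 0.419. In 2 of the 15, Insig2 and Abcg1, every Fgf10+/- array lay above every wild-type array, which is 13.3% against the 3.13% of all tested genes. Abcg1, an exporter of cholesterol named here after its values were seen, differed by 0.16 ± 0.09.

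Of 22 other tested genes of fatty acid synthesis, 20 had a positive difference, with a median of 0.11, and none was called. The median was 0.05 without Fgf10+/- 1 or wild-type 4 and 0.20 without Fgf10+/- 4 or wild-type 1, with 16 to 21 of 22 positive when any array was left out. Acsl4, which activates polyunsaturated fatty acids with CoA, read 11.31, 11.06, 11.12 and 10.89 in Fgf10+/- and 10.84, 10.57, 10.71 and 10.65 in wild-type. Its groups did not overlap, and its difference was 0.40 ± 0.10 (limma adjusted p = 0.0926). Hacd3, a dehydratase of chain elongation, differed by 0.23 ± 0.07 without overlap (limma adjusted p = 0.181). Of 18 genes of phospholipid and triglyceride synthesis 14 had a positive difference, with a median of 0.08. Against 0.226% of all tested genes, 1 of the 18 was called higher. This was Lpcat1, which remodels phosphatidylcholine in type 2 cells. It read 10.07, 9.74, 10.11 and 9.65 against 9.42, 9.40, 9.22 and 9.19, and rose by 0.58 ± 0.12 (limma adjusted p = 0.0423), with no overlap between the groups. Lpcat1 is also among the type 2 markers below. Its call held only without Fgf10+/- 4 or wild-type 1, and without any other array its limma adjusted p lay between 0.0606 and 0.148. None of 15 genes of fatty acid oxidation and other thioesterases was called. Their median was 0.11 with 11 of 15 differences positive, but 0.01 with the mean over the features of each gene (8 of 15 positive) and -0.04 with the feature of largest variance (7 of 15). Ppargc1a, a coactivator of oxidation genes, differed by 0.54 ± 0.17 with overlap (limma adjusted p = 0.227), and Cpt2, which takes fatty acids into mitochondria, by -0.18 ± 0.10.

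**Figure D5:**
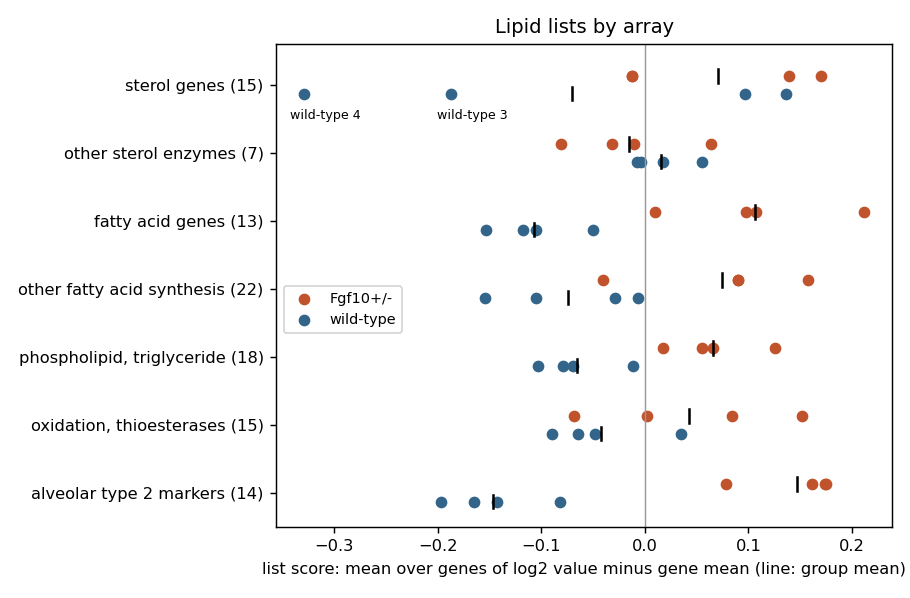
Score of each lipid list and of type 2 cell markers in each array (x axis: mean over the list's genes of the log2 value minus the gene's mean over 8 arrays; number of genes in brackets), Fgf10+/- in orange above wild-type in blue, with a black line at each group mean. The groups separate in the rows of the 13 fatty acid genes, the phospholipid genes and the type 2 markers, while in the sterol row wild-type 3 and 4 lie at -0.19 and -0.33 and the other arrays mix.

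Markers of cell types moved along the same groups. Of 14 markers of alveolar type 2 cells, 13 had a positive difference and the median was 0.35. Against 0.226% of all tested genes, 6 of the 14 were called higher. Among these were Slc34a2, a phosphate carrier, at 0.72 ± 0.11, Abca3, the lipid pump of lamellar bodies, at 0.48 ± 0.08, Lamp3 of the same organelle at 0.51 ± 0.09, and the transcription factor Etv5 at 0.41 ± 0.07 (limma adjusted p between 0.0100 and 0.0211). The surfactant protein genes Sftpa1, Sftpb and Sftpd differed by 0.10 ± 0.09, 0.14 ± 0.09 and 0.11 ± 0.08, with overlap and no call. Sftpd averaged 15.7 in Fgf10+/- and 15.6 in wild-type, near the top of the scale at 15.99, where a difference may not show in full. Cd74 at 0.19 ± 0.19 and Lyz2 at -0.25 ± 0.18 also overlapped and were not called. The count of 6 fell to 3 without Fgf10+/- 1, to 2 without Fgf10+/- 2 or 3 or wild-type 2 or 4, and to 0 without the variance trend. The type 2 score was 0.18, 0.16, 0.17 and 0.08 in Fgf10+/- arrays and -0.08, -0.17, -0.20 and -0.14 in wild-type arrays, which separates the groups as the fatty acid score does. Its most abundant marker, Sftpc, sat at the top of the scale in both groups and could show no difference. In bulk lung, more cells of a type and more RNA per cell cannot be told apart, and the part of type 2 cells in the fatty acid values was not tested.

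Dividing cells moved the other way. All 13 tested markers had the lower mean in Fgf10+/-, with a median of -1.41. Of these 9 were called lower, against 0.569% of all tested genes, among them Ccnb2 at -1.48 ± 0.18 and Tpx2 at -1.58 ± 0.22 (limma adjusted p = 0.00377 and 0.00728). With the mean over its features Tpx2 was at -0.99 and not called (limma adjusted p = 0.126). The count of 9 was 2 without wild-type 2, 4 without wild-type 4, 5 without Fgf10+/- 3 and 0 without the variance trend. Their score was -0.46, -0.42, -1.03 and -0.49 in Fgf10+/- arrays and -0.01, 0.79, 0.71 and 0.91 in wild-type arrays, and its part in the lipid values was not tested. Lipofibroblasts, the lipid-storing fibroblasts of the newborn lung, gave no call among 10 tested markers and a median of -0.18, with Limch1 at -0.22 ± 0.11 and Fabp4 at -0.43 ± 0.21. Of these 10 lipofibroblast differences 3 were positive, the highest 0.14. Adipocyte markers gave no call among 7 and a median of 0.30, which was 0.10 without wild-type 4 (4 of 7 positive) and 0.11 with the mean over features, with Lep at -0.94 ± 0.39 and Cidea at 0.48 ± 0.28, and Adipoq, which defines the cell type, averaged 2.74 and 2.42, dim enough to be removed by the filter. None of 14 macrophage markers was called, and the median was -0.23. Of their differences 9 were negative, among them C1qb at -0.88 ± 0.26 and C1qc at -0.59 ± 0.18. The other 5 were positive, among them Siglecf at 0.56 ± 0.35 and Itgax at 0.53 ± 0.20. Of 10 endothelial markers none was called, with a median of -0.06, Plvap at -0.27 ± 0.11 and Eng at -0.24 ± 0.10. Positive differences were found in 3 of these 10, the highest 0.15. Squamous epithelial markers had no call among 8 and a median of -0.02, with Krt10 at 0.25 ± 0.17 and Dsg3 at -0.54 ± 0.43. Such differences do not show whether skin or oesophagus was in the samples. The scores of lipofibroblasts, adipocytes, endothelium, squamous epithelium and macrophages overlapped between the groups.

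Hmgcs1 lies on the chromosome of Fgf10, chromosome 13, with 5 protein-coding genes between them in the RefSeq order. These neighbours are named for their place, with their values already known. Paip1, which fell by 0.79 ± 0.16, and 4833420G17Rik, which rose by 0.70 ± 0.09, were called (limma adjusted p = 0.0425 and 0.00377). Of all tested genes 0.795% were called in either direction. Paip1 lost its call when any array other than Fgf10+/- 1 was left out, with limma adjusted p-values of 0.0677 to 0.129, and its feature of largest variance differed by 0.24. 4833420G17Rik lost its call with the feature of largest variance (0.90, limma adjusted p = 0.213). Nnt, Tmem267 and Ccl28 were not called, at -0.40 ± 0.13, 1.26 ± 0.48 and 0.48 ± 0.47. Without wild-type 1 the Nnt difference was -0.52 and was called (limma adjusted p = 0.0274). Hmgcs1 beyond them was not called, and neither was Idi1, the other gene of the 28 on that chromosome. What the allele carries along with Fgf10 was not tested.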

How the data were processed

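Total RNA of whole lung was amplified with an Agilent low-input kit and hybridised to 8 Agilent arrays, per the labels' protocols. The deposited table holds log2 intensities of 62976 features. Limma is named in the submitters' processing notes, without its steps or version; the background correction and the build behind the array's design are not given in the sources used here. The 8 columns have nearly identical quantiles, so they were not normalized again. Features had 1 platform symbol (31465) or none here (31511); 2933 symbols were updated by accession through RefSeq (GRCm38.p6). Features with a missing value (189) or a mean below the 30th percentile of all features (2.76) were removed, and the feature with the highest mean stood for each gene, which gave 17234 genes. Groups were compared with limma 3.58.1 (lmFit, eBayes with a variance trend) in R 4.3.3, two-sided, adjusted by Benjamini-Hochberg, and single genes also by exact permutation over 70 assignments with Python 3.11.15 and scipy 1.17.1. The fit was tested on simulated data. No 2 arrays were identical, and Pearson correlations between arrays were 0.974 to 0.987. Arrays have no depth; their number limits the precision.

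The members and the lists were chosen with earlier results of these data known. Named are all 28 members and Fgf10. From each other list up to 4 called genes were named by smallest p or, with none called, the 2 with the smallest p. Exceptions, chosen with their values known, are Acot2, Abcg1, Adipoq, Sftpa1, Sftpb, Sftpc, Sftpd, Cd74, Lyz2, Ager, Siglecf, Itgax and the neighbours of Fgf10. The alternatives were other normalizations, filters, features per gene, symbols, variance models, thresholds, the replicate number as a block, and leaving out each array.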

Additional observations from a re-analysis of the deposited data

Results flagged for a closer look

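In 3 of 60 groups of 4 arrays (28 genes and both scores, each in 2 groups) a single array lay far from the other 3, by Dixon's gap, which chance gives in about 1 of 20 groups. Hmgcs1 read 11.08 in wild-type 4, where the other wild-type arrays read 11.28 to 11.32. Mvd read 6.12 in wild-type 4, against 7.18 to 7.32. Fasn read 7.26 in Fgf10+/- 4, against 7.72 to 7.78 in the other Fgf10+/- arrays.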

How the results depend on the processing

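Over the alternatives run, 502 of the 531 values of the 28 genes kept their direction and their side of the threshold. This count is no measure of robustness. The fit without the variance trend, the replicate block and the looser threshold leave each difference unchanged. Also, 27 of the 28 genes were not called to begin with. The number of genes called was 1 without the variance trend, 278 at an adjusted p below 0.1 and 34 to 173 with an array left out. No sterol gene was called under any alternative, and the sterol median was 0.03 to 0.19 with an array left out. The fatty acid median was 0.28 with the feature of largest variance for each gene and 0.17 to 0.25 with an array left out. The number of fatty acid genes called was 0 without the variance trend and 0 to 2 with an array left out. Signs turned for Nsdhl (-0.11) and Stard4 (-0.74) with the feature of largest variance, for Stard4 (-0.35) with the mean over features, and for Elovl1 (-0.023) and Gpam (-0.0010) with array weights. Outside the 28 genes they turned with the feature of largest variance for Ppargc1a (-0.083), Lep (0.66), Krt10 (-0.63), Nnt (0.82) and Paip1 (0.24), and for Krt10 (-0.19) with the mean over features. With an array left out, differences ranged over 0 in Fdps (-0.012 to 0.24), Fdft1 (-0.021 to 0.24), Cyp51 (-0.094 to 0.30), Dhcr7 (-0.18 to 0.10), Sc5d (-0.010 to 0.10), Mvd (-0.13 to 0.28), Stard4 (-0.084 to 0.12), Elovl1 (-0.038 to 0.059), Srebf1 (-0.016 to 0.25) and Gpam (-0.11 to 0.14). Medians of other lists moved too with an array left out, to -0.11 without wild-type 4 for lipofibroblasts, between -0.03 and -0.12 for endothelium and between -0.13 and 0.10 for squamous epithelium, and with the feature of largest variance to 0.13 for phospholipid and triglyceride genes. The cause was not tested. Platform symbols left as they were dropped Msmo1. With the replicate number as a block 116 genes were called, with Acot1 at a limma adjusted p of 0.0366, no other of the 28 called, and Lpcat1 and Paip1 no longer called (0.0525 and 0.0729); deviations of same-numbered arrays correlated by -0.06 to 0.07, so the numbers are not shown to pair the arrays. Whether dim features lay above background is unknown, and 4 arrays a group leave standard errors of up to 0.31 among the 28 genes.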
